A study of Mus musculus with 30 samples.

Results

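Wild-type (WT) bone marrow–derived dendritic cells (BMDCs) were compared between the libraries named 0p5h and those named ctrl. These are 10 of the 30 libraries of the series, 5 of each name, and they were chosen by genotype and library name. BMDCs are antigen-presenting cells grown from marrow with granulocyte-macrophage colony-stimulating factor. They came from C57BL/6J mice of both sexes aged 6 to 12 weeks and were grown for 6 days. One culture gave 1 library of each name, and the 5 cultures are p974s846, p974s850, p974s855, p974s856 and p974s864, the order in which values are listed throughout. The study pulsed cells with 500 µM adenosine triphosphate (ATP), a signal of cell damage, for 30 min. The labels contradict each other on which set that was, since the treatment field gives 30min_ATP where the name says ctrl, and vehicle where it says 0p5h. The sets are therefore given by name, and "rose" or "fell" means higher or lower in 0p5h than in ctrl. Whether each culture came from 1 animal is not in the labels, and the spread between cultures may be partly technical. Libraries of the other genotype, Cacnb3-/- from mice listed as C57BL/6N, were used for comparison only.

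Immediate early genes are transcribed within minutes of a stimulus from promoters that need no new protein. Many code for transcription factors of the AP-1, Egr and Nr4a families. Others code for phosphatases, RNA decay factors and kinase inhibitors that shut the same signals off again. In dendritic cells this first wave overlaps with genes for cytokines, chemokines and prostaglandin synthesis.

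Gene counts summed to 17037603 to 32164225 in the 0p5h libraries and to 18424736 to 26425018 in the ctrl libraries. Depth did not differ beyond the spread between cultures (exact sign-flip permutation test over the 5 cultures, two-sided, p = 0.438, the smallest possible being 0.0625), nor did the share of mitochondrial counts, 1.07 to 4.49% in ctrl and 1.13 to 4.02% in 0p5h (p = 0.562 by the same exact test). That share covers all genes with symbols that begin with mt-. Of the 13 listed as mitochondrially encoded genes, 5 were at 0 in all 10 libraries. Both libraries of a culture shared a sequencing lane except in p974s846, with ctrl on lane 1 and 0p5h on lane 2. The 0p5h library of p974s856 stood apart in a few genes. Rpph1, the RNA of ribonuclease P, had 28.3 CPM there and at most 1.998 CPM in the other 9, and ENSMUSG00000098178, a gene without a symbol here, had 13796 CPM against at most 1059.7 CPM. Counts without this culture are given below.

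Every library held counts for markers of dendritic cells and of other cells. Summed over 12 dendritic cell genes, the level was 32395 to 48999 CPM in ctrl and 33824 to 49289.6 CPM in 0p5h. Most of it came from antigen presentation genes, Cd74 (mean over the 10 libraries 14979 CPM), H2-Aa (8670), H2-Eb1 (6586) and H2-Ab1 (4645). Ccr7 (4694) and Irf8 (1698) were also abundant, while Zbtb46 (119), Flt3 (68.1), Clec10a (10.5) and Cd209a (0.156) were low. The sums are therefore not shares of cells. The 12 macrophage markers summed to 2479 to 10686 CPM in ctrl and 3442 to 9157 CPM in 0p5h, and 12 granulocyte markers to 139 to 556 CPM in ctrl and 176 to 461 CPM in 0p5h. Markers of T, B and NK cells summed to 5.62 to 18.3 CPM in ctrl and 5.69 to 22.2 CPM in 0p5h over 12 genes. None of these markers was at 0 in all 10 libraries. The 8 markers of mast cells, basophils and eosinophils summed to 17.9 to 26.9 CPM in ctrl and 20.1 to 34.1 CPM in 0p5h, higher in 0p5h in 5 of 5 cultures, and their part in the results was not tested. In these 5 lists, the members that passed the test of change were Ccr7, Cd14 and Gata2, described below. Fewer cells of a type and less RNA per cell cannot be told apart in such bulk samples.

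From ctrl to 0p5h, 65 genes rose (0.497%) and 11 fell (0.0841%) at least 2-fold among 13085 tested, 76 in all (0.581%). The largest rise was that of Fosb, a subunit of the AP-1 transcription factor, and the largest fall that of Tnf, the gene for tumor necrosis factor. Several genes of AP-1, Egr and Nr4a factors, signal inhibitors and cytokines rose, as did Ptgs2, the cyclooxygenase gene of prostaglandin synthesis, while the fallen genes other than Tnf were mostly weakly counted. Levels are given as CPM, reads per 1000000 counted reads after normalization. A gene was called where it changed at least 2-fold and edgeR's quasi-likelihood test, with the culture as a block and Benjamini-Hochberg adjustment over all genes, gave an adjusted p under 0.05. By adjusted p alone, 431 genes passed upward (3.29%) and 349 downward (2.67%), and the median log2 fold change over all genes was 0.0085. Without the culture as a replicate block, 23 genes were called higher, all of them among the 65, and 0 lower (edgeR), with 594 genes at an unadjusted p under 0.05 against 2829 with it. With the block, DESeq2 called 61 higher and 7 lower and limma-voom 64 and 11. Without culture p974s856 the calls were 56 higher and 6 lower, and without p974s846, whose libraries lay on different lanes, 72 and 8.

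**Figure D1:**
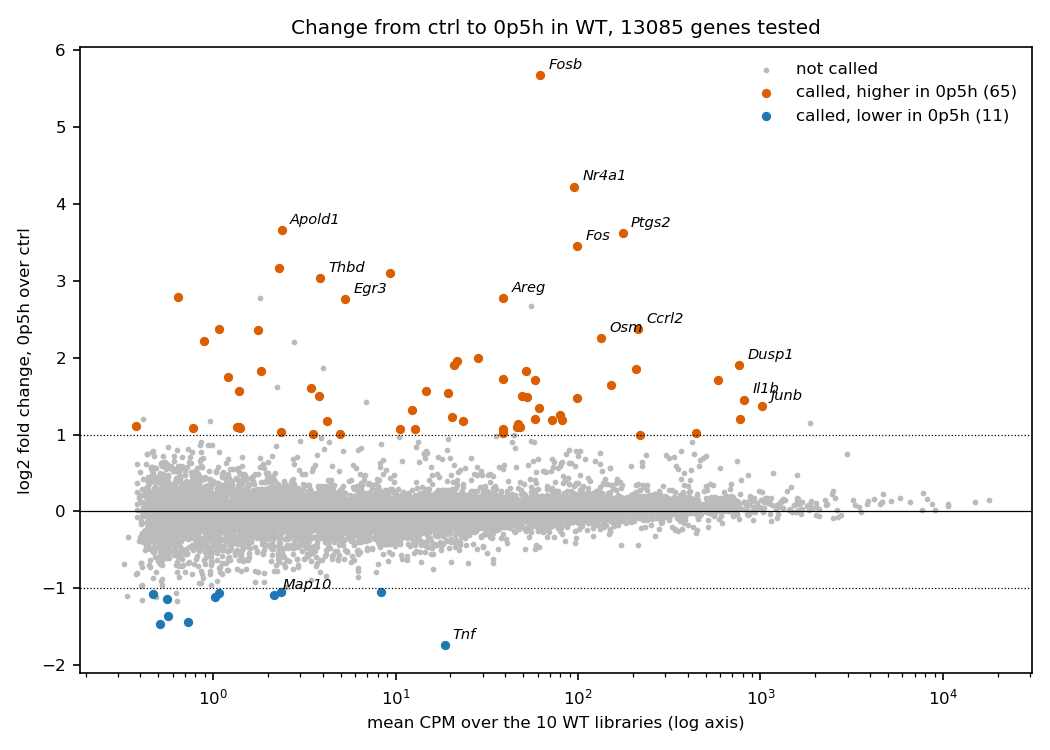
Each point is 1 of 13085 tested genes, with the mean CPM over the 10 WT libraries on a log axis and the log2 fold change from ctrl to 0p5h on the vertical axis. The 65 orange points above the upper dotted line (2-fold) reach 5.67 for Fosb. Most of the 11 blue points lie at low CPM, and the largest fall is that of Tnf at -1.74. Grey points beyond the lines did not pass the adjusted p.

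AP-1 is a dimer of Fos and Jun proteins, and 4 of its 11 tested subunit genes were called higher. Fosb (ENSMUSG00000003545, GRCm38 chr7:19302721-19310045, minus strand) had 1.61, 2.39, 1.85, 0.860 and 4.95 CPM in ctrl and 54.8, 209, 43.1, 139.8 and 162 CPM in 0p5h. Every 0p5h library thus lay far above every ctrl library (log2 fold change 5.67, standard error 0.26, edgeR adjusted p = 2.12e-06). Fos rose from 16.2, 15.4, 10.5, 6.56 and 46.1 to 157, 213, 131, 191 and 199 CPM (log2 fold change 3.45, standard error 0.28, edgeR adjusted p = 5.89e-05). Culture p974s864 had the highest Fos in ctrl and p974s855 the lowest in 0p5h, and the sets did not overlap. Junb, already abundant in ctrl at 624, 516, 701, 638 and 377 CPM, reached 1485, 1363, 1645, 1918 and 990.5 CPM (log2 fold change 1.37, standard error 0.06, edgeR adjusted p = 2.12e-06). Its rise varied little between cultures, from 1.23 to 1.59 on the log2 scale. Fosl2 rose from 149 ± 43.4 CPM to 290.2 ± 47.5 CPM (SD, n = 5) and sat at the fold limit (log2 fold change 1.001), so its call was lost without p974s850, p974s856 or p974s864. Below 2-fold, Fosl1 (0.90, edgeR adjusted p = 0.00327) and Atf3 (0.50, edgeR adjusted p = 0.0113) also rose. Jun and Jund had log2 fold changes of -0.08 and 0.07 and did not pass, nor did Batf, Batf2 and Batf3. Per kilobase of exon, Junb led the family in both sets, with 311 and 804 CPM per kb, whereas Fosb went from 0.622, the lowest of the 11, to 32.4 CPM per kb.

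Nr4a1 (ENSMUSG00000023034, GRCm38 chr15:101266846-101274792, plus strand), an orphan nuclear receptor, had the next largest rise, from 8.96, 5.52, 9.58, 8.21 and 13.6 to 121, 215, 85.5, 262 and 224 CPM (log2 fold change 4.22, standard error 0.25, edgeR adjusted p = 7.23e-06). All 5 libraries named 0p5h were well above all 5 named ctrl. Its relatives Nr4a2 (1.26, called) and Nr4a3 (0.48, edgeR adjusted p = 0.0202) rose less, so all 3 members passed upward. Of 9 tested Egr and Ier genes, Egr3, Egr1 and Egr2 (1.21) were called and Ier2 passed below 2-fold. Egr3 went from 1.32, 0.783, 1.13, 1.91 and 1.07 to 3.05, 10.8, 3.20, 18.4 and 11.2 CPM (log2 fold change 2.76, standard error 0.30, edgeR adjusted p = 3.30e-04), with the smaller rises in p974s846 and p974s855. The call of Egr1, at 12.2 ± 5.04 CPM and 28.5 ± 10.03 CPM (SD, n = 5, log2 fold change 1.22), was lost when any 1 was left out of cultures p974s850, p974s856 and p974s864. Among 10 Klf factors, Klf4 was the 1 called. It rose from 6.80, 9.21, 5.39, 8.91 and 14.6 to 20.6, 39.3, 25.4, 45.9 and 41.4 CPM (log2 fold change 1.96, standard error 0.12, edgeR adjusted p = 7.23e-06), without overlap of the sets. Klf6 rose slightly (0.28, edgeR adjusted p = 0.00297), while Klf10 (-0.24) and Klf11 (-0.37) fell, so the list moved in both directions.

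**Figure D2:**
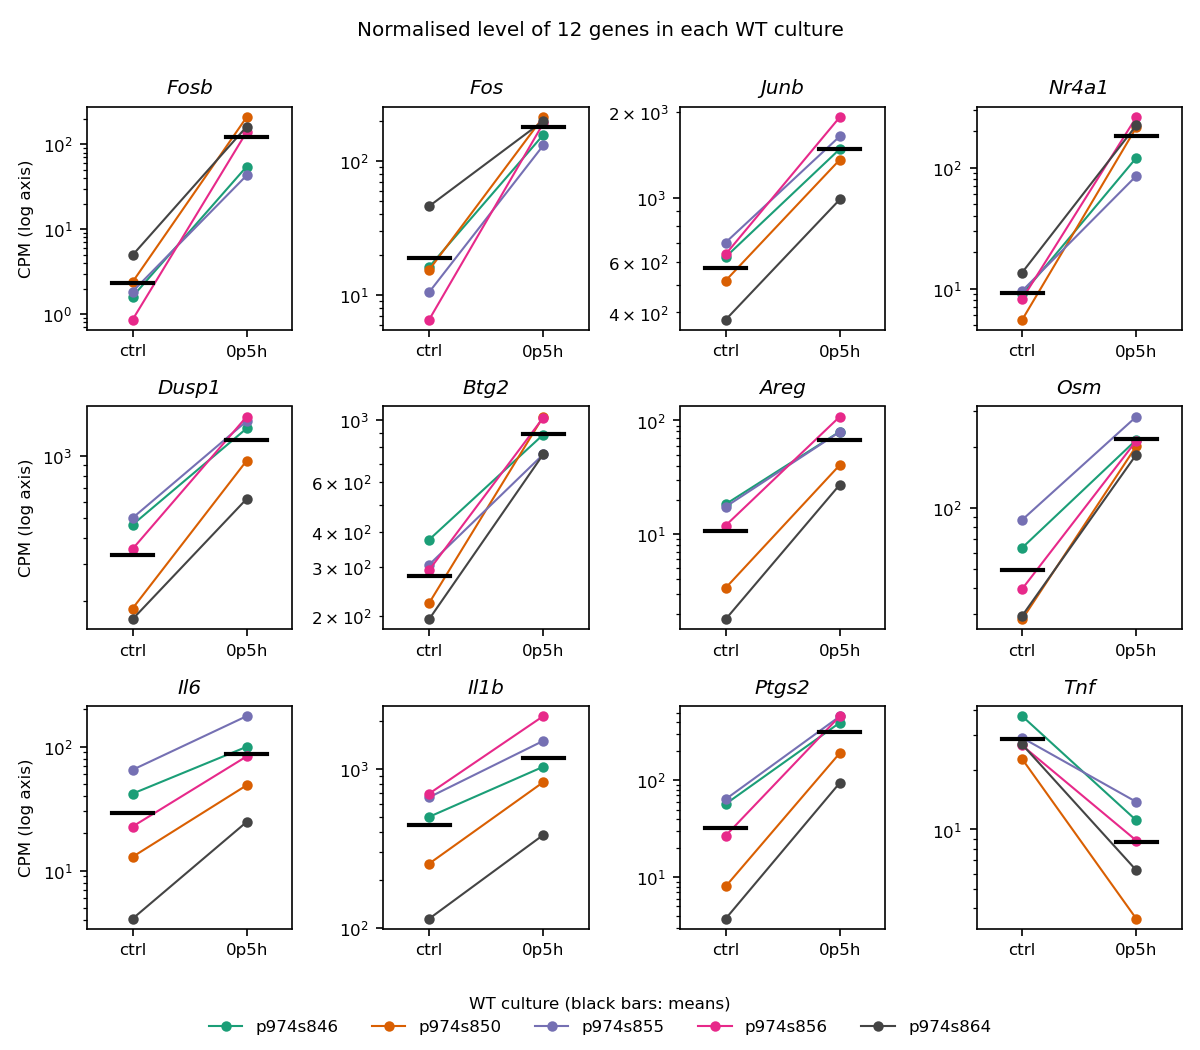
CPM on a log axis for 12 genes, with 1 line for each of the 5 WT cultures from its ctrl to its 0p5h library and black bars at the means. All lines of the 11 risen genes go up and all of Tnf go down, and for Il6 and Il1b the spread between cultures is wide enough for the sets to overlap.

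The promoters of these genes can be read directly. RefSeq promoters on GRCm38.p6 were matched by symbol for 40 of the 65 risen genes, and the 250 bases before the start site were searched for the letters TGACG on either strand, the core of the cyclic AMP response element. They hold it in 22 of 40 (55%), against 30.5% of 9840 tested genes with a promoter and 19.8% of all 27025 genes in the promoter set. The full palindrome TGACGTCA, which contains that core on both strands, is in 4 (Areg, Btg2, Dusp1 and Plk2), or 10%, against 3.04% and 1.77%. The AP-1 letters TGACTCA on either strand are in 3, or 7.5%, against 4% and 5.16%. Of the 11 fallen genes 6 had a promoter. Among these, 1 (Ch25h, 16.7%) holds the core and the palindrome, and 0 hold the AP-1 letters. The letters TATAAA, also searched on either strand, are in 7 of the 40 (17.5%) and in 4 of the 6 (66.7%), against 7.7% and 14.3%. A match describes letters in this window and does not show that a factor binds. Shown first are the promoters of the 3 largest rises that hold TGACG, then the 2 largest rises with the palindrome, each 5′ to 3′ and ending 1 base before the start site, with TGACG or its reverse complement CGTCA in capitals.
Fosb, chr7:19310046-19310295, strand -: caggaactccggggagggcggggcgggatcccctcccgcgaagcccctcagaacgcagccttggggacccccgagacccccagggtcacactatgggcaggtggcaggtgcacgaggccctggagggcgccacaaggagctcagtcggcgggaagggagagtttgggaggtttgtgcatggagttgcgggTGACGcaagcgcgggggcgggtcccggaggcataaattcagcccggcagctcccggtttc
Nr4a1, chr15:101266596-101266845, strand +: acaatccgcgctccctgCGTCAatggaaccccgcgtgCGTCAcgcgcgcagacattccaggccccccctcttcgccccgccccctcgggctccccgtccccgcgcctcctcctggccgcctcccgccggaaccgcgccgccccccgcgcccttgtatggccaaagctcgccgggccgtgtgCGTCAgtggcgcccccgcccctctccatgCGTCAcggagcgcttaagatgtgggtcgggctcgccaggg
Apold1, chr6:134981751-134982000, strand +: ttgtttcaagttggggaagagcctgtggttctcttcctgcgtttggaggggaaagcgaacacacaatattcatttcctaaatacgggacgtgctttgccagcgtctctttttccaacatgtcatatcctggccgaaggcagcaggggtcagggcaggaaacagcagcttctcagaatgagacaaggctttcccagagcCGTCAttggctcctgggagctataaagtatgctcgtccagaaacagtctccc
Areg, chr5:91139349-91139598, strand +: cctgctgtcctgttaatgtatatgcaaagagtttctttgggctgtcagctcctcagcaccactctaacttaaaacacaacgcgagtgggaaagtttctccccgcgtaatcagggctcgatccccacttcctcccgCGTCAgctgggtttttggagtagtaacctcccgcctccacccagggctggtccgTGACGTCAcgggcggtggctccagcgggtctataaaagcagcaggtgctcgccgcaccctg
Dusp1, chr17:26508473-26508722, strand -: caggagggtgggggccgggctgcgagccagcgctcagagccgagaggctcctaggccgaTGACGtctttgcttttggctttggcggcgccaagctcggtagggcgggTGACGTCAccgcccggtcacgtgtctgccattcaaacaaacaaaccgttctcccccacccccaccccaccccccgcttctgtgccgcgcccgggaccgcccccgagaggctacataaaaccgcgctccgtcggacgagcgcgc

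Nr4a1 carries 4 copies of the core, the nearest starting 40 bases before the start site. Fosb and Apold1 carry 1 each, starting 60 and 52 bases before it. The palindrome starts 61 bases before the start of Areg and 143 before that of Dusp1. Ptgs2 has no match in these 250 bases, although CGTCA is found just after the start site that RefSeq gives for it. The position taken as the start site can thus decide whether a match falls in the window.

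Inhibitors of the kinase pathways that induce early genes rose as well. Of 14 tested feedback inhibitors of mitogen-activated protein (MAP) kinases, 7 passed upward and 2 downward, with a median log2 fold change of 0.45 against 0.0085 over all genes. Dusp1, a phosphatase that switches MAP kinases off, had 465, 183, 501, 355 and 162 CPM in ctrl and 1357, 948, 1471, 1546 and 619.7 CPM in 0p5h (log2 fold change 1.90, standard error 0.11, edgeR adjusted p = 7.23e-06). Culture p974s864 was lowest in both sets, and its 0p5h library still exceeded all 5 ctrl libraries. Dusp4 (1.08) was called too, and Dusp14 (0.76), Dusp5 (0.72), Spry1 (0.67), Dusp10 (0.60) and Spred2 (0.29) rose by less than 2-fold. Dusp2 fell (-0.63, edgeR adjusted p = 0.0116), as did Spred3 (-0.30, edgeR adjusted p = 0.0103), so the list did not move as one.

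Of the cyclic AMP and CREB targets, 7 of 16 tested passed, all upward. Rgs2, which dampens G protein signals, rose from 72.3, 96.8, 65.4, 79.1 and 136 to 245, 406, 208, 378 and 386 CPM (log2 fold change 1.85, standard error 0.09, edgeR adjusted p = 3.48e-06). The sets were clearly separated in this gene. The salt-inducible kinase gene Sik1 rose from 23.01 ± 5.14 CPM to 81.4 ± 14.4 CPM (SD, n = 5, log2 fold change 1.83). Below 2-fold, Rgs1 (0.74), Per1 (0.63), Crem (0.56) and the phosphodiesterase gene Pde4b (0.54) rose. Among genes that act on mRNA decay, 5 of 10 passed, all upward. Btg2 had 374, 222, 305, 292 and 195 CPM in ctrl and 889, 1031, 756, 1022 and 756 CPM in 0p5h (log2 fold change 1.71, standard error 0.13, edgeR adjusted p = 2.69e-05). Tob2 (0.80), Zfp36 (0.66), Zfp36l1 (0.59) and Zc3h12a (0.55), the last of which encodes a nuclease of cytokine mRNAs, rose by less than 2-fold. In the Socs and Pim list of cytokine receptor feedback, Pim3 was called (1.19), Socs1 (0.65), Cish (0.61), Pim1 (0.59) and Socs3 (0.52) rose below 2-fold, Socs6 fell (-0.29), and 5 of 11 did not pass. Of 14 NF-kB subunits and inhibitors, Nfkbiz was called (1.14) and the inhibitors Tnfaip3 (0.70) and Nfkbie (0.22) rose. None of the 5 subunits (Nfkb1, Nfkb2, Rel, Rela and Relb) passed, with log2 fold changes from -0.08 to 0.26.

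Secreted factors formed the largest called group. Of 17 tested cytokines and growth factors, 7 were called higher and 1 lower, and 5 more passed upward below 2-fold, with a list median of 0.57 on the log2 scale. Osm, of the interleukin-6 family, rose from 63.5, 28.2, 87.2, 39.8 and 29.4 to 216, 201, 281, 214 and 183 CPM (log2 fold change 2.25, standard error 0.15, edgeR adjusted p = 1.67e-05). Its sets did not overlap, and the 0p5h levels were closer together than the ctrl levels on a log scale. Il6 had 41.7, 12.9, 64.9, 22.6 and 4.09 CPM in ctrl and 99.6, 48.7, 176, 83.3 and 24.7 CPM in 0p5h (log2 fold change 1.71, standard error 0.13, edgeR adjusted p = 3.50e-05). The rise was seen in 5 of 5 cultures, while the sets overlapped, with ctrl levels that ranged widely between cultures, and without the replicate block the adjusted p was 0.9997. Lif, of the same family, went from 41.1, 11.2, 46.6, 35.7 and 10.8 to 94.1, 39.8, 105, 101 and 43.1 CPM (log2 fold change 1.49, standard error 0.11, edgeR adjusted p = 2.35e-05), and its sets overlapped too. Il1b was among the most abundant, at 499, 253, 662, 698 and 114 CPM in ctrl and 1029.7, 824, 1497, 2142 and 384 CPM in 0p5h (log2 fold change 1.46, standard error 0.10, edgeR adjusted p = 1.77e-05). It rose in each culture, while culture p974s864 in 0p5h remained below 3 of the ctrl libraries. Pgf, a placental growth factor gene (1.497), Il10 (1.08) and Il12b (1.02) were also called. Il12b rose from 345, 140.4, 781, 244 and 102 to 485, 448, 1145, 469.6 and 287 CPM, with the smallest step in p974s846, and lost its call without p974s850 or p974s864. Il10 was low, at 0.91 ± 0.76 CPM in ctrl and 1.91 ± 1.42 CPM in 0p5h (SD, n = 5), with overlapping sets. It lost its call without p974s855, p974s856 or p974s864. Below 2-fold, Tnfsf15 (0.65), Tnfsf9 (0.57), Vegfa (0.57), Il1rn (0.42) and Il15 (0.21) rose.

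Tnf moved the other way. The gene (ENSMUSG00000024401, GRCm38 chr17:35199381-35202007, minus strand) had 37.2, 22.6, 28.96, 26.5 and 26.8 CPM in ctrl and 11.1, 3.55, 13.8, 8.79 and 6.23 CPM in 0p5h (log2 fold change -1.74, standard error 0.16, edgeR adjusted p = 1.31e-04). It fell in 5 of 5 cultures and the sets did not overlap, with p974s850 lowest in both. Without the replicate block its adjusted p was 0.0571, and it was called in each of the 5 fits that left out 1 culture.

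Areg, a ligand of the epidermal growth factor receptor, rose from 18.4, 3.37, 17.4, 11.9 and 1.79 to 79.8, 40.6, 79.5, 108 and 27.3 CPM (log2 fold change 2.77, standard error 0.21, edgeR adjusted p = 2.84e-05). Cultures p974s850 and p974s864 had the lowest Areg in both sets and the largest relative steps. Errfi1, an inhibitor of that receptor, rose below 2-fold (0.91, edgeR adjusted p = 6.04e-04), and Hbegf, with a log2 fold change of 0.56, did not pass. Of 14 tested chemokines, 6 passed, all upward, and 2 were called. Cxcl2, a neutrophil attractant, had 34.5, 22.1, 27.9, 21.4 and 22.7 CPM in ctrl and 47.6, 54.2, 52.3, 58.4 and 45.7 CPM in 0p5h (log2 fold change 1.02, standard error 0.11, edgeR adjusted p = 4.05e-04). The sets were separate, but the call was lost without p974s850 or p974s856. Ccl2 was low, at 1.54 ± 1.14 CPM and 3.15 ± 2.11 CPM (SD, n = 5, log2 fold change 1.03), and was not called without p974s856. Ccl4 (0.90), Cxcl10 (0.88), Cxcl1 (0.66) and Cxcl3 (0.49) rose below 2-fold, whereas the abundant dendritic cell chemokines Ccl17 (0.11) and Ccl22 (0.17) did not pass.

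Of 11 tested chemokine receptors, 4 passed upward and 1 downward. Ccrl2, an atypical receptor that binds chemerin, rose from 96.6, 32.2, 125, 77.9 and 39.6 to 305, 282, 399, 488 and 287 CPM (log2 fold change 2.37, standard error 0.20, edgeR adjusted p = 6.85e-05). The lowest 0p5h library was above the highest ctrl library. Ackr3, which scavenges Cxcl12, was called as well (1.32), with overlapping sets. Ccr7, the receptor that guides dendritic cells to lymph nodes, was far more abundant at 4327 ± 797 CPM and 5060.3 ± 802 CPM (SD, n = 5) and rose only slightly (0.23, edgeR adjusted p = 0.0203). Cxcr4 also rose below 2-fold (0.25) and Cxcr2 fell (-0.62).

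Ptgs2 (ENSMUSG00000032487, GRCm38 chr1:150100031-150108227, plus strand), which encodes the inducible cyclooxygenase of prostaglandin synthesis, had 56.9, 8.03, 63.8, 26.8 and 3.73 CPM in ctrl and 393, 191, 457, 459.7 and 94.2 CPM in 0p5h (log2 fold change 3.62, standard error 0.26, edgeR adjusted p = 2.35e-05). Each culture rose steeply without overlap of the sets, and p974s850 and p974s864 were lowest in both. Of the 8 prostaglandin and leukotriene genes, the receptor gene Ptger4 rose (0.35, edgeR adjusted p = 4.41e-04) and Ptger2 fell (-0.77, edgeR adjusted p = 0.0104). Ptgs1, Ptges, Pla2g4a, Alox5 and Alox5ap did not pass. Several rises lay outside the lists. Thbd, which encodes thrombomodulin, went from 0.402, 0.666, 0.113, 0.274 and 3.27 to 2.44, 9.93, 2.39, 6.21 and 13.02 CPM (log2 fold change 3.04, standard error 0.30, edgeR adjusted p = 1.76e-04), and p974s864 in ctrl overlapped the 0p5h set. Apold1, an early gene of endothelium, went from 0.512, 0.0783, 0.566, 0.391 and 0.153 to 8.67, 2.16, 4.05, 5.79 and 1.36 CPM, between 2 and 142 reads (log2 fold change 3.66, standard error 0.22, edgeR adjusted p = 7.23e-06). Tnfaip6, a hyaluronan-binding protein of inflammation, went from 0.512, 0.0392, 1.85, 0.234 and 0.357 to 3.54, 1.83, 4.15, 2.84 and 2.25 CPM (log2 fold change 2.36, standard error 0.35, edgeR adjusted p = 0.00304). These 3 genes are weakly counted and rose in 5 of 5 cultures. The myeloid receptor gene Trem1 rose from 15.3, 16.3, 19.1, 28.02 and 8.48 to 45.2, 50.7, 53.9, 124 and 27.6 CPM (log2 fold change 1.72, standard error 0.09, edgeR adjusted p = 3.48e-06). Culture p974s864 was lowest in both sets, which overlapped. Cd14, the lipopolysaccharide co-receptor and the 1 of 12 macrophage markers that passed, rose from 471 ± 192 CPM to 1066 ± 437 CPM (SD, n = 5, log2 fold change 1.2001).

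Genes of the P2X and P2Y families and of ATP release and calcium handling moved little. The P2X and P2Y receptors were listed by name, and which of them bind ATP was not considered. Of 5 tested P2X receptors none passed, with log2 fold changes from -0.15 to 0.13. P2rx4 was at 194 ± 19.7 CPM and 200.1 ± 23.2 CPM and P2rx5 at 64.5 ± 14.1 CPM and 60.0 ± 7.84 CPM (SD, n = 5). Of 8 P2Y receptors, P2ry1 fell (-0.35, edgeR adjusted p = 0.0300) and P2ry10b rose (0.49, edgeR adjusted p = 0.0247), both weakly expressed. The more abundant P2ry10 and P2ry14 had log2 fold changes of 0.20 and 0.01 and did not pass. Both adenosine receptors that raise cyclic AMP rose, Adora2a from 140.2 ± 15.1 CPM to 173 ± 9.73 CPM (SD, n = 5, log2 fold change 0.30, edgeR adjusted p = 0.00345) and Adora2b at a lower level (0.63, edgeR adjusted p = 0.00327). The ATP channel gene Panx1, the ectonucleotidase genes Entpd1 and Nt5e and the transporter gene Slc29a3 were at 0.05, 0.11, 0.09 and -0.17 and did not pass. Among 26 genes of IP3 receptors, phospholipase C and calcium handling, 1 passed, the store-operated channel gene Orai3 (-0.19, edgeR adjusted p = 0.0301). Ppp3ca and Atp2b1, the most abundant of these, were at 0.14 and -0.04.

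Most other lists had few or no changes. The exceptions were the integrated stress response, with 6 of 13 genes passing upward, and dendritic cell maturation, with 4 of 14. Over all tested genes 3.29% passed upward. None of 20 adhesion molecules passed, with log2 fold changes from -0.24 to 0.19. Itgb1 was at 822 ± 98.6 CPM and 892 ± 88.5 CPM and Selplg at 929 ± 133 CPM and 942 ± 126 CPM (SD, n = 5). None of 12 heat shock chaperones passed, including Hsp90ab1 (0.09) and Hspa8 (0.05). Of 11 inflammasome genes, the sensor gene Nlrp3 rose (0.92, edgeR adjusted p = 2.98e-05), whereas Gsdmd (0.02) and the decoy receptor gene Il1r2 (0.18) did not pass. Of 27 genes of actin and serum response factor, Srf (0.21) and Tpm4 (0.19) rose, and Rnd1 (-0.62) and Arc (-0.43) fell, while Actb (0.08) and Fscn1 (0.10) did not pass. In the integrated stress response list, Trib1 was called (1.35) and 5 of 13 rose below 2-fold, led by Gadd45g (0.82), while Atf4 (-0.02) and Ddit3 (-0.25) did not pass. Of 14 interferon-stimulated genes, Mx2 (-0.44) and Irf1 (-0.32) fell, and Mx1 (-0.20) did not pass. Of 14 genes of dendritic cell maturation, Plet1 (0.36), Cd80 (0.34), Cd274 (0.25) and Ccr7 rose by less than 2-fold. Cacnb3, the subunit the study deletes in its other genotype, had 1368, 1400.1, 1152, 1163 and 1219 CPM in ctrl and 1247, 1399, 1037, 1058 and 1468 CPM in 0p5h (log2 fold change -0.03, standard error 0.06, edgeR adjusted p = 0.829), which did not differ beyond the spread between cultures. Among dendritic cell markers, Cd74 and H2-Aa were at 0.12 and 0.09, and among markers of other cells S100a8 (-0.09), S100a9 (-0.09), Siglecf (0.14), Cd8a (0.18) and Cd79b (-0.17) did not pass. Gata2, in the list of mast cells, basophils and eosinophils, rose (0.45, edgeR adjusted p = 0.00288), and mt-Co1 and mt-Cytb were at 0.02 and 0.09.

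**Figure D3:**
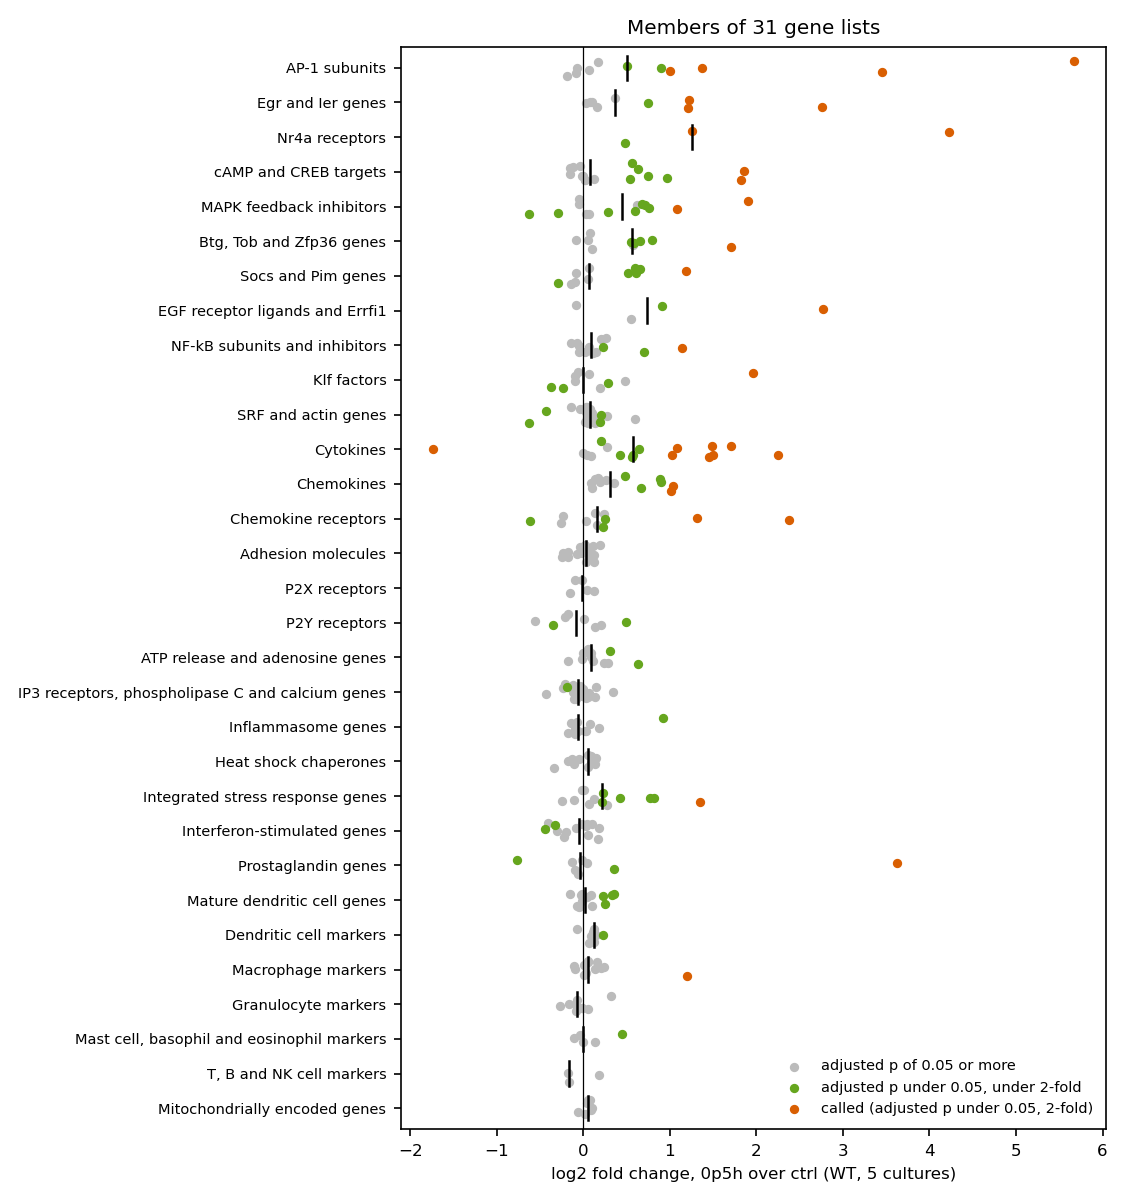
Log2 fold change from ctrl to 0p5h (5 WT cultures) of each tested member of 31 gene lists, with the list median as a black bar. Orange points, which passed at 2-fold, sit mostly in the lists of early genes, feedback inhibitors and secreted factors, and green points passed below 2-fold. The lists of P2X receptors, adhesion molecules and heat shock chaperones hold grey points only.

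Besides Tnf, the called falls were smaller and mostly in weakly counted genes. Ch25h, which makes 25-hydroxycholesterol, had 2.16, 5.48, 2.87, 4.02 and 1.48 CPM in ctrl and 1.47, 1.996, 1.37, 1.90 and 0.843 CPM in 0p5h (log2 fold change -1.05, standard error 0.15, edgeR adjusted p = 0.00242). It fell in every culture, with overlapping sets, and its call was lost without p974s850. Map10, a microtubule-associated protein gene, went from 3.18, 2.62, 2.83, 3.32 and 2.71 to 0.977, 1.94, 1.41, 1.32 and 1.22 CPM without overlap (log2 fold change -1.09, standard error 0.17, edgeR adjusted p = 0.00428), and lost its call without p974s846. Mir223hg, the host transcript of the myeloid microRNA miR-223, went from 4.90, 14.4, 5.05, 4.88 and 27.1 to 4.88, 7.21, 1.70, 1.74 and 11.6 CPM (log2 fold change -1.05, standard error 0.17, edgeR adjusted p = 0.00496). Culture p974s846 had nearly equal Mir223hg in both sets. The other 7 were Gad1-ps (-1.46), Gm26642 (-1.44), Gm9967 (-1.36), Dynlt4 (-1.14), Nkapl (-1.11), Zfp558 (-1.07) and Zfp418 (-1.06), all under 2 CPM on average in ctrl. Gad1-ps is a pseudogene, so its few reads may be shared with its parent gene. Of the 11, Tnf, Gm26642 and Nkapl kept their call in each of the 5 fits that left out 1 culture. Exons of Gm26642 overlap the more abundant gene Rnpep, as described below.

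The other called rises, as log2 fold changes, include genes of signalling and the cell cycle, namely Rasd1 (1.90), Plk3 (1.57), Plk2 (1.196), Cass4 (1.60), Traf4 (1.08), Bambi (1.1803), Gpr171 (1.17), Lrrc32 (1.54), Spdya (2.79), Ccno (1.83), Fam83d (1.57) and Prkcz (1.11). Genes of metabolism, transcription and other functions included Hilpda (1.47), Coq10b (1.10), Slc25a33 (1.07), Spty2d1 (1.65), Hps6 (1.10), Trmt61b (1.01), Dlx3 (1.10) and Nap1l2 (1.09). Gene models without an assigned function here were Gm17024 (2.37), Gm17971 (2.22), Gm6377 (1.99), Gm37352 (1.74), Gm11870 (1.08) and Gm26532 (1.01). The remaining 2, ENSMUSG00000095891 (3.16) and ENSMUSG00000075015 (3.10), have no symbol. In 0p5h the former had 0.733, 0.610, 0.0654, 17.3 and 2.20 CPM and the latter 3.24, 1.497, 0.0981, 71.2 and 10.3 CPM, so both were highest in the p974s856 library that stood apart, and without that culture neither was called. Their calls were also lost without p974s850 or p974s855, that of ENSMUSG00000075015 also without p974s846, and both in DESeq2 and limma-voom. Prkcz, with at most 20 reads in a library, was called in none of the 4 fits without 1 culture in which it was tested. The call of Gm11870 was lost without p974s850, p974s855, p974s856 or p974s864, that of Gm26532 without p974s846, p974s856 or p974s864, those of Slc25a33 and Trmt61b without p974s850 or p974s864, those of Dlx3 and Nap1l2 without p974s850, and that of Traf4 without p974s864. Strand was not used in counting, and exons of 14 called genes overlap another gene model. Among them are Il1b with an antisense transcript, Plk3 with Dynlt4, which moved in opposite directions, and Spdya with Trmt61b, which both rose. Gm26642 overlaps Rnpep (61.7 CPM in ctrl) on the opposite strand, and Gm6377 overlaps Sh3bgrl (202 CPM in ctrl) on the same strand. Reads shared between such pairs cannot be assigned.

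Called genes mostly moved alike in the 5 cultures, and the rise differed in size between them. Of the 65 risen genes, 63 were higher in 5 of 5 cultures, and all 11 fallen genes were lower in 5 of 5. Among all 13085 tested genes, 1446 were higher and 1225 lower in 5 of 5. The genes were called on these same libraries with the culture as a block, so such agreement follows in part from the choice. In 42 of the 65 and 6 of the 11 the 2 sets of libraries did not overlap, which held for 0.825% of all tested genes upward and 0.932% downward. The median difference of the 65 genes, on log2 (CPM + 0.5), was 1.01, 1.67, 0.98, 1.64 and 1.51 in the 5 cultures. Cultures p974s846 and p974s855 thus had the smaller rises. In ctrl, p974s855 was the highest library in 25 of the 65 genes and p974s864 in 19, and in 0p5h p974s856 was the highest in 25.

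**Figure D4:**
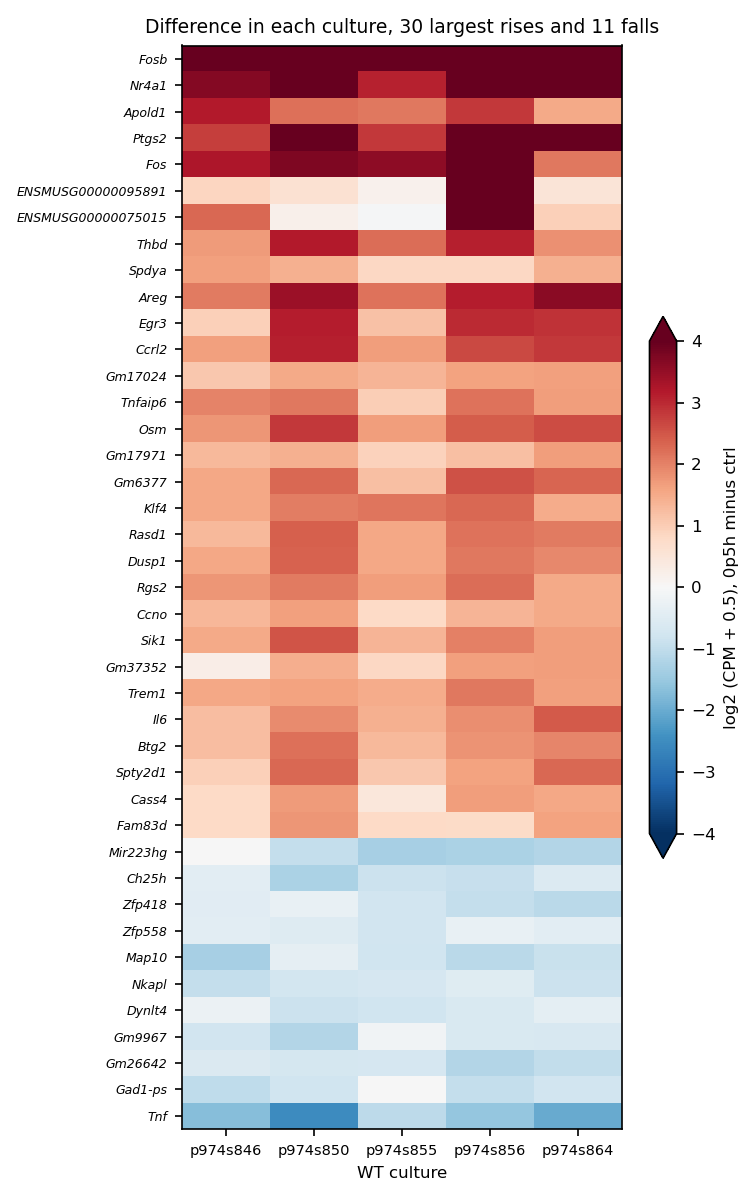
Difference between the 0p5h and the ctrl library of each WT culture, on log2 (CPM + 0.5), for the 30 largest rises and the 11 falls among called genes, ordered by log2 fold change, with the color scale ending at 4 in each direction. Nearly all risen genes are red in all 5 columns, and ENSMUSG00000095891 and ENSMUSG00000075015 are darkest in p974s856.

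Both the risen and the fallen genes were shorter in the genome than most tested genes. The median span of the risen genes was 5374 bases and their median exon number 4, against 20877 bases and 9 exons over all tested genes. The fallen genes were shorter still, with medians of 3278 bases and 2 exons. Of these 11 genes 7 are protein coding (63.6%), against 87.7% of the risen and 91.7% of all tested genes. The part of this in the shorter spans was not tested. Exon counts of at most 4 were found in 38 of the 65 risen genes (58.5%), in 10 of the 11 fallen genes (90.9%) and in 23.1% of all tested genes. Fos and Fosb have 4 exons each, Nr4a1 has 7, Ptgs2 has 11, and Junb has 1. The risen genes had a median level of 10.6 CPM in ctrl, against 20.8 CPM over all genes, whereas the 11 fallen genes had a median of 1.4 CPM in ctrl. GC content was 51.6% in risen and 49.4% in all tested genes (medians), and removing each library's trend with GC left 65 and 11 calls.

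The libraries named 24h of the same cultures place these levels. Of the 65 risen genes, 63 had a lower mean in 24h than in 0p5h and 52 a lower mean than in ctrl. Fosb was at 1.45 ± 1.10 CPM, Nr4a1 at 12.7 ± 10.8 CPM and Ptgs2 at 20.4 ± 15.6 CPM in 24h (SD, n = 5). Tnf was at 30.8 ± 15.4 CPM, and Ch25h at 13.7 ± 7.66 CPM, above its level in both other sets. These values are a description without a test, since the genes were chosen on their ctrl and 0p5h levels.

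The change was also set beside that of the 5 Cacnb3-/- cultures, in which 74 genes were called higher and 8 lower of 12750. Of the 65 genes that rose in WT, 62 were tested there and 60 had a positive log2 fold change, and of the 11 that fell 10 were tested and 9 were negative. Fosb had 5.14, Nr4a1 4.55, Ptgs2 4.28 and Tnf -1.54 in Cacnb3-/- (log2 fold changes). A test of whether the 2 genotypes changed unequally (set by genotype, edgeR) called 0 of 13465 genes (0.0%), and DESeq2 called 0. In edgeR 312 genes had an unadjusted p under 0.05, fewer than the 673 that make up 5% of those tested. Among the WT calls, 9 of 75 tested had an unadjusted p under 0.05. The calls were made on WT libraries that also enter this test, so that number may follow in part from the choice. The 9 include Il1b, Tnfaip6, Pgf, Ackr3 and Ccl2. Also among them are the pseudogene Gm17971, and ENSMUSG00000095891 and ENSMUSG00000075015, which were highest in the p974s856 library that stood apart. The smallest adjusted p of the WT calls was 0.9999 (edgeR), and a p above the threshold does not show that the genotypes respond alike. With no filter on low counts edgeR did call genes for the difference between genotypes, as given below.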

How the data were processed

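RNA was measured in 10 WT libraries, with 5 WT libraries named 24h and 10 Cacnb3-/- libraries (named ctrl and 0p5h) for comparison. The authors deposited raw read counts for 43629 genes. Per the file headers, featureCounts 1.5.1 counted exons against Ensembl release 79 on GRCm38, with read 1 alignments and no option for strand, multiple alignments or overlaps. The labels name STAR 2.4 and a HiSeq sequencer, while the paper's methods name GRCm39 and a NovaSeq. Symbols came from GENCODE M39 by Ensembl identifier (39033 genes, 89.5%).

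Counts were filtered with filterByExpr, TMM-normalized and tested in edgeR 4.0.16 (R 4.3.3) by quasi-likelihood with the culture as a block and Benjamini-Hochberg adjustment. Genes were called at an adjusted p under 0.05 and at least 2-fold. Standard errors are the log2 fold change divided by the square root of F. Library numbers paired the samples. Libraries of the same number deviated together from their set means with a correlation of 0.63 to 0.86 over 13085 genes, against at most 0.47 for other numbers. The fits were tested on simulated data. Pairwise differences used a pseudocount of 0.5 CPM. The 31 gene lists, the members and the tests were chosen with earlier results of these data known.

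Named were the 15 largest rises and 10 largest falls among called genes that moved alike in 5 cultures, every called list member, the 2 most abundant tested members of each list without a call, Cacnb3, and other called genes by fold change. List members that passed below 2-fold, members named as not passing and genes high in 1 library were named after their values were seen. Alternatives were no block, DESeq2 1.42.0 (the paper's tool), limma-voom (limma 3.58.1), DESeq2 size factors, no filter, no fold minimum, all 15 WT libraries, a GC correction and leaving out each culture. Results for a few genes are not reported here. Depth was 17037603 to 32164225 counts per library.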

Additional observations from a re-analysis of the deposited data

Results flagged for a closer look

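Total counts set 2 libraries apart from the other 4 of their name by Dixon's test at the 95% level. In ctrl this was culture p974s864, with 18424736 counted reads, and in 0p5h culture p974s855, with 32164225. The share of mitochondrial counts set no library apart. Of the CPM values listed by library, 9 of 58 groups of 5 also held such a library, where chance would give about 5%, and 0 did on log2 (CPM + 0.5). In ctrl, culture p974s864 stood out in Fos (46.1 CPM), Thbd (3.27 CPM), ENSMUSG00000095891 (1.38 CPM) and ENSMUSG00000075015 (5.16 CPM), and p974s855 in Tnfaip6 (1.85 CPM). In 0p5h, culture p974s856 stood out in Trem1 (124 CPM), ENSMUSG00000095891 (17.3 CPM) and ENSMUSG00000075015 (71.2 CPM), and p974s855 in Il12b (1145 CPM). Without p974s864 edgeR called 61 genes higher and 14 lower, and without p974s855 67 and 8.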

How the results depend on the processing

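Without the culture as a replicate block, which the pairing of libraries by number calls for, edgeR called 23 genes, 23 higher and 0 lower, in place of 76, 65 and 11. With no filter on low counts it called 115, of which 25 were lower, and 29 of the 115 were not among the genes otherwise tested. With no fold minimum it called 780, 431 higher and 349 lower. DESeq2 with the block called 7 lower. Without 1 culture each, the counts were 61 to 80 called, 53 to 72 higher and 6 to 14 lower, the lowest number of falls without p974s856. With no filter the difference between genotypes was called in 17 genes in place of 0, of which 4 were not otherwise tested, and it was called in 0 in each of 10 fits without 1 culture. The causes were not tested. All other settings gave counts within 1.5 times. Of the 76 called genes, 51 were called in all 12 alternative fits apart from that without the block, and 0 changed direction in any fit that tested them. Genes under about 1 CPM rest on few reads.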

Other observations

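Genes with symbols that begin with Zfp, most of which code for zinc finger proteins, tended to lower levels in the libraries named 0p5h. This group was chosen after its values were seen, and no test was made. Of 334 tested, 61 passed downward (18.3%, against 2.67% of all tested genes) and 3 upward (against 3.29% of all tested genes). Their median log2 fold change was -0.21, against 0.0085 over all genes. Of the 334, 125 were lower in 5 of 5 cultures, against 1225 of all 13085 tested genes. Most changes were small, and 2 of these genes, Zfp558 and Zfp418, reached 2-fold. Among the larger were Zfp696 (-0.89), Zfp764l1 (-0.85) and Zfp324 (-0.84), while Zfp36, Zfp36l1 and Zfp703 (0.78) were the ones that rose. The number that passed downward was 43 in DESeq2, 61 in limma-voom, 65 with the GC trend removed, 106 with no filter, 30 with all 15 WT libraries in one fit, 24 to 64 without 1 culture (lowest without p974s856) and 1 without the replicate block, with medians from -0.23 to -0.18 in all settings.

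Other genes outside the lists passed below 2-fold and were picked after their values were seen. Thbs1, which codes for thrombospondin 1, was the most abundant of them, at 2229 CPM in ctrl and 3734 CPM in 0p5h (log2 fold change 0.75). Nfil3 (0.91), Inhba (0.95), Gem (0.99), Sgk1 (0.74), Myc (0.80) and Pmaip1 (0.74) rose as well. Osgin1 (-0.99), Gpr84 (-0.79), Gpr18 (-0.78), Tlr9 (-0.66), which codes for the receptor of unmethylated DNA, Tk1 (-0.75) and Sertad1 (-0.67) fell.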
